A study of Mus musculus with 4 samples.

Results

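The genes described here are those of the cytosolic ribosomal proteins, chosen by gene name alone: names that begin with Rpl or Rps and a number, the stalk genes Rplp0, Rplp1 and Rplp2, and Rpsa, without the ribosomal S6 kinases. The rule found 85 of the 13903 genes in the deposited table, 51 with large subunit names and 34 with small subunit names. RNA was measured by bulk mRNA-seq in whole liver of OGT-Floxed mice, background C57BL/6J, all on a liver-damaging, choline-deficient diet with added ethionine (CDE). The label OGT-KO marks mice given the virus AAV8-TBG-CRE, in which a hepatocyte promoter drives Cre recombinase, and the label Control marks mice given AAV8-TBG-eGFP. Other liver cells should therefore keep OGT, the enzyme that places O-GlcNAc on proteins. The time labels are No Recovery from the diet and 7 Day Recovery. The ages of the mice and the time between virus and sampling are not given in the sources used here. Each of the 4 conditions was 1 library of RNA pooled equally from 3 mice, so no value below has a replicate error and no difference was tested between conditions.

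A ribosome joins a small subunit, which reads the mRNA, to a large subunit, which forms peptide bonds, and each subunit holds rRNA and a set of proteins needed in nearly equal numbers. The mRNAs of these proteins begin with a terminal oligopyrimidine (TOP) tract, a C followed by an unbroken run of C and T, through which mTOR signalling and the RNA-binding protein LARP1 adjust how much of them is translated. Their levels in liver are known to follow growth, as after injury or loss of tissue, and an mRNA level does not measure translation.

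The start of the RNA was therefore looked at first. Promoter sequences from RefSeq (GRCm38.p6) matched 62 members, with 73 annotated start sites. In a window of 30 bases, from 10 before to 20 from the annotated start, the longest run of C and T had a median of 6 bases at the members' starts and of 4 at the 9223 starts of 7178 compared genes. A run of at least 8 bases was present at 24 of the members' 73 starts (32.9%), beside 11.2% of the starts of all compared genes. The windows below are given as DNA, 5′ to 3′ on the coding strand, with the longest run of C and T in capitals. Where a gene has several annotated starts, the start with the longest run is shown. They show a run of at least 9 bases for Rps6, Rps27, Rplp2, Rpl27a and Rpl22l1, which in Rplp2 and Rpl22l1 begins with T, and the windows of members described below for their values, Rpl12, Rps19, Rps2, Rpl41 and Rpl10.
Rps6 (chr4:86857348-86857377, minus strand): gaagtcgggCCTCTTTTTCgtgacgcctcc
Rps27 (chr3:90213629-90213658, minus strand): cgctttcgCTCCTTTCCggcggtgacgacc
Rplp2 (chr7:141447641-141447670, plus strand): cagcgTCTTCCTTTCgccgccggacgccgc
Rpl27a (chr7:109519185-109519214, plus strand): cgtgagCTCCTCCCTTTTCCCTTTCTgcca
Rpl22l1 (chr3:28805498-28805527, plus strand): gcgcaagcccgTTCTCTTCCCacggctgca
Rpl12 (chr2:32961702-32961731, plus strand): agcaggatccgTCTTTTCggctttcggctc
Rps19 (chr7:24884903-24884932, plus strand, 1 of 3 annotated starts): agcggggtgtggagggCTCTCCCacgcggt
Rps2 (chr17:24720053-24720082, plus strand): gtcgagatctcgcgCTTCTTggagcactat
Rpl41 (chr10:128549149-128549178, minus strand): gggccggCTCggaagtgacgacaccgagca
Rpl10 (chrX:74270806-74270835, plus strand): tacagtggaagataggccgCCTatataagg
The run was 20 bases long for Rpl27a and 10 for Rps6, but 3 for Rpl41 and for Rpl10, whose annotated starts may not be the ones used in liver. Over the wider window of 300 bases, from 250 before to 50 after the start, the letters CCGGAA, the core of an ETS factor motif, occurred on either strand at 49.3% of the members' starts and at 28.2% of those of compared genes. The letters AAGATGGC, the core of the YY1 motif, occurred at 11.0% and 4.8%. TATAAA, the letters of a TATA box, occurred at 9.6% and 7.3%, and CACGTG, the E-box bound by MYC, at 11.0% and 10.3%. A match of letters is a description of the sequence and not a binding site.

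The libraries held between 19972699 and 22866431 reads on the listed genes, and 3 reads, taken as the smallest amount the depth can show, corresponded to 0.131 to 0.15 CPM (reads scaled to a library total of 1000000). The gene Ogt did not follow the label at both time points. It had 55.3 CPM in the library with the label OGT-KO and 64.7 CPM in the control library with no recovery, and 77.7 and 55.7 CPM after 7 days. These values count reads over the whole gene and also those of cells other than hepatocytes. The libraries also differed in composition: the 10 hepatocyte markers, among them Alb, summed to 57166 and 69387 CPM in the OGT-KO-labelled libraries and to 84918 and 93601 CPM in the control libraries, and the 100 most abundant genes of each library took 34.1% and 34.3% of its reads against 42.8% and 45.0%. In the same order, with no recovery before 7 days, markers of bile duct cells (6 genes) summed to 1157 and 1469 CPM against 53.9 and 70.0, those of stellate cells (9 genes) to 3443 and 4244 against 243 and 173, those of macrophages (8 genes) to 850 and 718 against 206 and 77.8, those of endothelial cells (7 genes) to 353 and 251 against 190 and 133, and proliferation genes (7 genes) to 202 and 399 against 32.4 and 35.2. Erythroid genes (5 genes) summed to 106 and 159 CPM against 349 and 270 CPM, of which Alas2 alone had 10.1 and 24.0 against 213 and 171 CPM. The listed globin genes were lower with the label OGT-KO with no recovery but higher after 7 days. Among them Hbb-bs had 55.1 and 80.0 against 79.3 and 61.0 CPM. Of 7 T and NK cell, 4 B cell and 4 neutrophil markers, 3 of each were in the table, and no such list summed to over 23.4 CPM in any library, with Cd8a listed at 0 in the control library after 7 days. Abundant genes weigh most in these sums. In the OGT-KO-labelled library with no recovery Alb had 41362 CPM of the hepatocyte sum and Col3a1 1212 CPM of the stellate sum, but Epcam only 64.2 CPM of the bile duct sum. In bulk tissue, fewer cells of a type and less RNA per cell cannot be told apart. The part of these shifts in any value below was not tested.

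With no recovery, ribosomal protein mRNA took 1.85% of the reads of the OGT-KO-labelled library (18466 CPM summed over the 85 genes) and 1.28% of the control library (12842 CPM), a ratio of 1.44 with a 95% interval of 1.43 to 1.44. After 7 days it took 1.70% (17013 CPM) and 1.19% (11880 CPM), a ratio of 1.43 with an interval of 1.42 to 1.44. Intervals here and below are exact (Clopper-Pearson) and cover counting error only. In CPM both OGT-KO-labelled libraries lay above both control libraries, with nearly the same ratio at the 2 time points, but under the median-ratio scaling described below the ratio was 0.873 with no recovery and 0.890 after 7 days. Genes of the large subunit summed to 10848 against 7646 CPM with no recovery, and after 7 days to 10127 against 7127 CPM. Genes of the small subunit summed to 7618 against 5196 CPM and to 6885 against 4753 CPM. The ratio of the labels was 1.42 at both times for the large subunit, and 1.47 and then 1.45 for the small subunit.

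**Figure D1:**
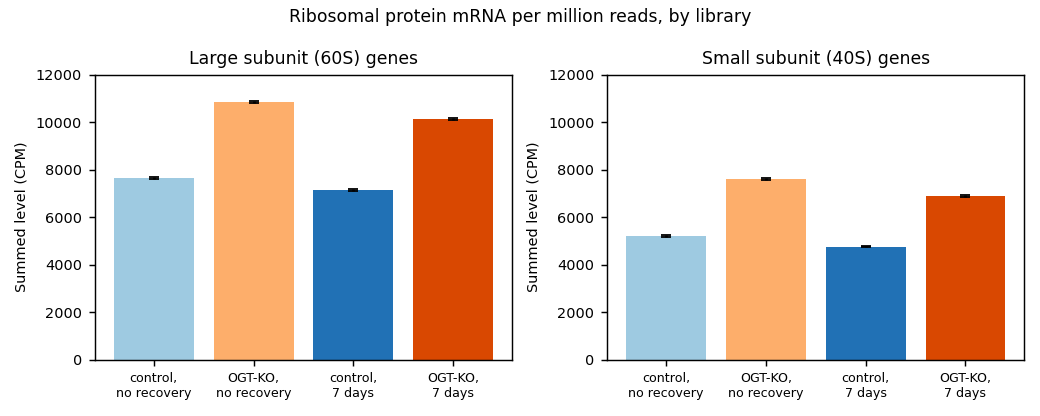
Summed level in CPM of the large subunit genes (left, 51 genes) and the small subunit genes (right, 34 genes) in each of the 4 libraries; error bars are exact 95% counting intervals. In both panels the 2 OGT-KO-labelled libraries stand above the 2 control libraries in CPM, 10848 and 10127 against 7646 and 7127 for the large subunit, an order that turns under median-ratio scaling (ratios 0.862 and 0.883).

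Levels of the single members spanned a wide range in every library. In the control library with no recovery the lowest member stood at 0.894 CPM, the median at 141 CPM and the highest at 522 CPM. In the OGT-KO-labelled library with no recovery these values were 1.01, 214 and 556 CPM. Per kilobase of transcript, and as a mean over the 4 libraries, the most abundant members were Rplp1, an acidic protein of the stalk that recruits translation factors, at 828 CPM per kb, Rpl41, the smallest ribosomal protein, at 659, Rps24 at 584, Rps2 at 511 and Rps15 at 468. Lengths are those of the shortest well-supported coding transcript in GENCODE M21 (GRCm38), so these levels rank the members only roughly.

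A mean under 10 CPM was found for 6 of the 85 members, which were therefore not compared: Rps10, Rpl36al, Rps27rt, Rpl9-ps6, Rpl10-ps3 and Rpl36a-ps1. Rps10, a protein of the beak of the small subunit, had 5.16 CPM in the OGT-KO-labelled library and 1.79 CPM in the control library with no recovery, and 5.23 and 2.35 CPM after 7 days. The other low members lay between 0.894 and 7.96 CPM in every library. Ribosomal protein genes have many near-identical processed copies, and the handling of reads that match several copies is not given in the sources used here, so the level of a single member, above all of these low ones and of Rpl13a at 9.21 to 23.8 CPM, is uncertain.

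The 79 remaining members were compared as differences of log2(CPM + 1), which understates the change of low genes, beside all 8963 genes whose mean reached 10 CPM. With no recovery, OGT-KO against control, 4 of 79 members (5.06%) rose at least 2-fold in CPM, among them Rpl22l1, Rps19bp1 and Rps19, where 24.4% of all compared genes did. No member fell at least 2-fold, where 5.69% of all compared genes did. The median log2 fold change of the members was 0.56 and that of all compared genes 0.51. By any amount, 78 of 79 members were higher in the OGT-KO-labelled library, beside 75.6% of all compared genes. The median of the members was thus close to that of all compared genes, and few members reached 2-fold.

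After 7 days the picture was similar. Only Rpl41 rose at least 2-fold, 1 of 79 members, where 22.9% of all compared genes did, and none fell at least 2-fold, where 4.27% did. The median log2 fold change was 0.54 for the members and 0.48 for all compared genes, and 78 of 79 members were higher in the OGT-KO-labelled library beside 78.5% of all compared genes. At a 1.5-fold threshold, 34 of 79 members (43.0%) were higher at each time point, beside 45.5% of all compared genes with no recovery and 43.0% after 7 days, and none was lower by as much, beside 10.1% and 7.52%. Both OGT-KO-labelled libraries lay above both control libraries for 76 of 79 members, beside 70.0% of all compared genes. The 3 exceptions were Rpl10, Rpl35a and Rps2, and no member had both OGT-KO-labelled libraries below both control libraries, beside 16.6% of all compared genes.

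The direction of this shift depended on the scaling of the libraries. The libraries were also scaled by the median ratio of genes to their geometric means. This ratio was taken over all listed genes above 0 in every library, also those not compared. The median log2 fold change then became -0.19 with no recovery and -0.18 after 7 days for all compared genes, and -0.15 at both times for the members. Then 19 of 79 members (24.1%) were higher in the OGT-KO-labelled library with no recovery, beside 38.9% of all compared genes, and 17 of 79 (21.5%) after 7 days, beside 38.3%. Both OGT-KO-labelled libraries then lay above both control libraries for 10 members (12.7%, beside 29.5% of all compared genes) and below them for 50 (63.3%, beside 51.5%). Relative to the median of all compared genes the members stood higher by 0.06 on the log2 scale at both time points in CPM.

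The members lay close to each other. With no recovery, 75.9% of the 79 members had a log2 fold change within 0.25 of the members' own median, and 28.1% of all compared genes lay within 0.25 of theirs. After 7 days these shares were 81.0% and 32.5%. The interquartile range of the log2 fold change was 0.29 and 0.21 for the members, and 0.97 and 0.85 for all compared genes. Large and small subunit members had the same median log2 fold change, 0.56 with no recovery and 0.54 after 7 days. These spreads are descriptions of 1 pair of libraries at each time point.

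**Figure D2:**
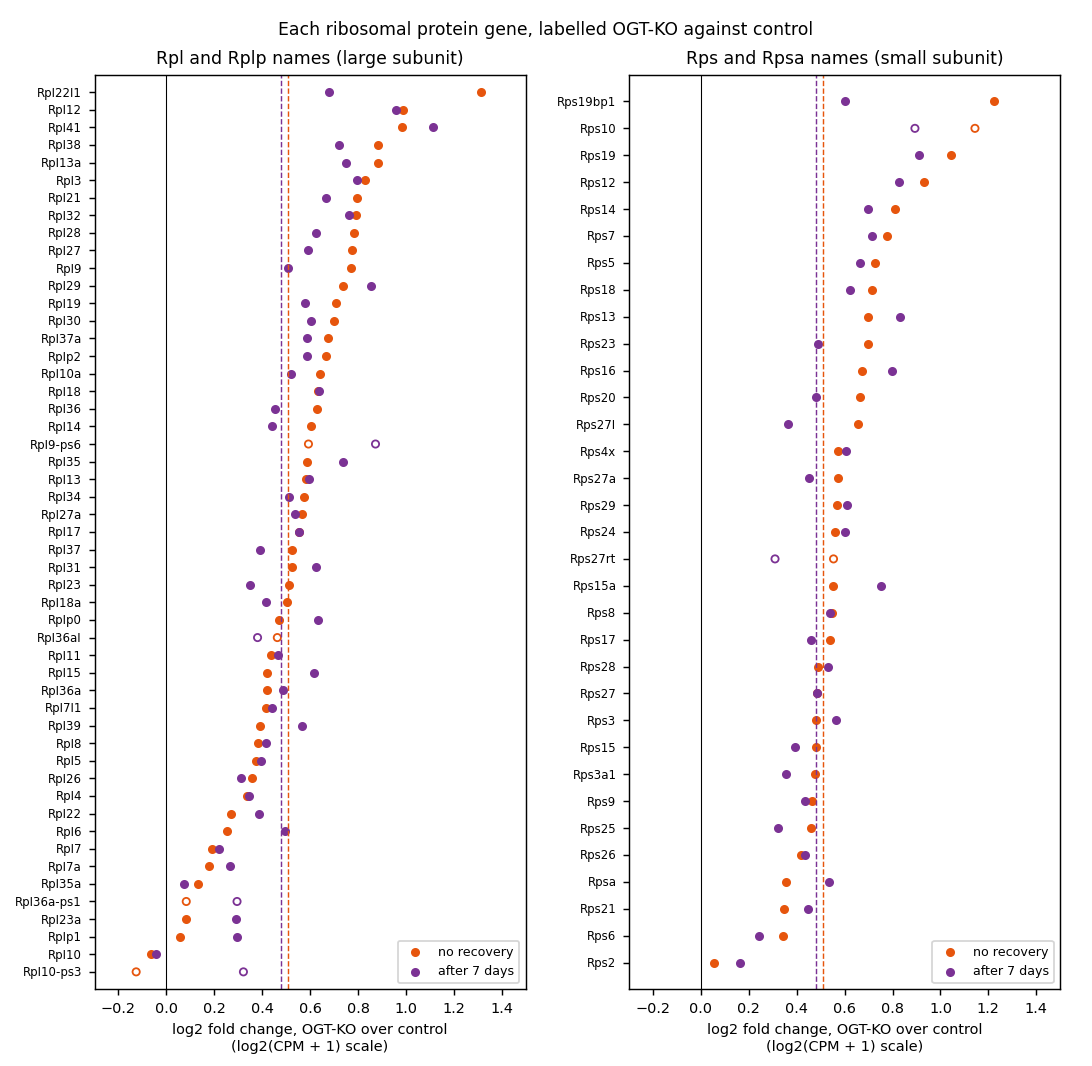
Log2 fold change of the members, 1 of the 85 not drawn, OGT-KO over control, for large (left) and small (right) subunit names, with no recovery (orange) and after 7 days (purple); open circles are the 6 members under the filter and dashed lines the medians of all compared genes, 0.51 and 0.48. In CPM nearly all points lie right of 0, though not under median-ratio scaling (19 and 17 of 79 members), and gather around the dashed lines, with Rpl22l1 at 1.31 and Rpl10 at -0.06 (both with no recovery) as the ends of the range among the members compared.

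Differences between members depend hardly at all on the scaling. Of the 79 members, 60 stood on the same side of the members' median at both time points, 6 stood more than 0.25 above it on the log2 scale at both (among them Rps19, Rpl12, Rpl41, Rps12 and Rpl3) and 5 more than 0.25 below it at both (Rpl10, Rps2, Rpl35a, Rpl7a and Rpl7). None stood more than 0.25 above at one time point and more than 0.25 below at the other. No share of all compared genes stands beside these counts, so they do not set the members apart from other genes. Over the 79 members the log2 fold changes at the 2 time points, which share no library, had a Pearson correlation of 0.80 and a Spearman correlation of 0.80, and over all 8963 compared genes the Pearson correlation was 0.94. The points share base composition, transcript length and any copies of the gene, and the correlations are descriptions. The length of the transcript had a Spearman correlation of -0.13 with the log2 fold change over the members with no recovery and of -0.09 after 7 days.

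Among the members that stood high, Rps19, the gene most often mutated in Diamond-Blackfan anemia, had 171 CPM with the label OGT-KO and 82.4 CPM in the control library with no recovery, and 137 and 72.4 CPM after 7 days. Both OGT-KO-labelled libraries lay well above both control libraries. Its ratios were 2.07 (95% interval 1.96 to 2.19) and 1.89 (1.78 to 2.02), log2 fold changes of 1.04 and 0.91, so that it rose at least 2-fold with no recovery only. Rpl12, a protein at the base of the stalk, had 285 against 143 CPM with no recovery and 278 against 143 CPM after 7 days. Its ratios, 1.99 (1.91 to 2.08) and 1.95 (1.86 to 2.04), lay just under 2-fold.

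Rpl41 had 415 against 209 CPM with no recovery and 362 against 167 CPM after 7 days. It was the member with the largest log2 fold change after 7 days, 1.11, and had 0.98 with no recovery. Under the median-ratio scaling 13 of 79 members (16.5%) were still higher in the OGT-KO-labelled libraries at both time points, beside 32.4% of all compared genes, and 56 (70.9%) were lower at both, beside 55.2%. The log2 fold change on that scaling was 0.33 and 0.23 for Rps19, 0.27 and 0.28 for Rpl12, and 0.27 and 0.43 for Rpl41.

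Among the members that stood low, Rpl10, a late-joining protein near the tRNA sites of the large subunit, had 293 CPM in the OGT-KO-labelled library and 306 CPM in the control library with no recovery, and 278 and 286 CPM after 7 days. Its values were almost level across the 4 libraries. It was the only member compared whose level was lower in the OGT-KO-labelled library at either time point, and its ratio was 0.957 (0.924 to 0.990) with no recovery and then 0.970 (0.935 to 1.01). Rps2, a protein at the mRNA entry site of the small subunit, had 543 against 522 CPM with no recovery and 516 against 461 CPM after 7 days. Rpl35a, a large subunit protein also mutated in Diamond-Blackfan anemia, had 130 against 119 CPM and 118 against 113 CPM. These 3 members had log2 fold changes between -0.06 and 0.13 with no recovery and between -0.04 and 0.16 at 7 days, so that on the median-ratio scaling they stood between -0.78 and -0.52 at both time points.

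Other low members were near them. Rplp1 had 439 against 422 CPM with no recovery and 436 against 355 CPM after 7 days. Rpl23a, a protein of the tunnel exit, had 137 against 130 CPM and 153 against 125 CPM. Rpl7 had 244 against 213 CPM and 237 against 203 CPM, and Rps6, the substrate of the S6 kinases, had 198 against 156 CPM and 182 against 154 CPM. All of these were higher in the OGT-KO-labelled library at both time points in CPM, and all were lower at both on the median-ratio scaling.

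By their place in the ribosome the members showed no group far from the rest. The 3 stalk members had a median log2 fold change of 0.47 with no recovery and 0.59 after 7 days: Rplp0, which anchors the stalk, had 528 against 382 CPM and then 537 against 346 CPM, and Rplp2 had 252 against 159 CPM and then 214 against 142 CPM. Rpl5 and Rpl11, which join the large subunit with 5S rRNA and bind MDM2 when ribosome assembly fails, had log2 fold changes of 0.37 and 0.44 with no recovery and of 0.39 and 0.46 after 7 days. Rpl5 had 230 against 177 CPM and then 224 against 170 CPM. The 8 members around the exit of the peptide tunnel had medians of 0.46 and 0.56. Of 9 members listed here for Diamond-Blackfan anemia, a selection of its genes, 8 were compared, with medians of 0.49 and 0.46.

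**Figure D3:**
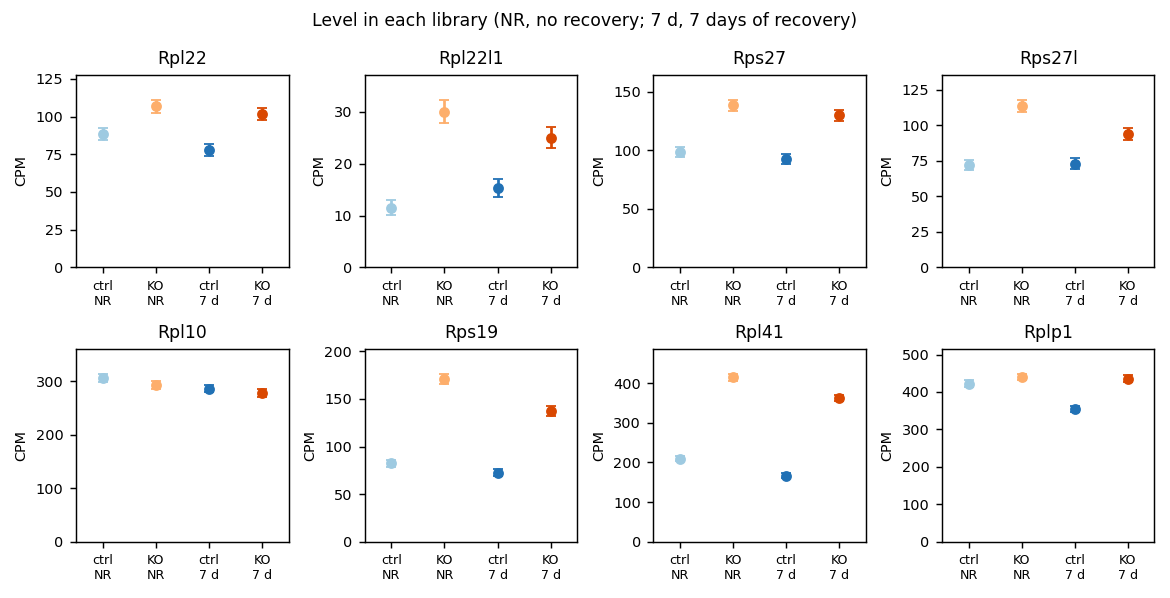
CPM of 8 members in each library with exact 95% counting intervals (NR, no recovery; 7 d, 7 days of recovery). Rps19 and Rpl41 stand about as high again in both OGT-KO-labelled libraries, Rpl10 is nearly level at 278 to 306 CPM, and Rpl22l1 runs from 11.5 to 30.0 CPM.

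Paralogues of ribosomal proteins, some of which can take the place of the main protein, were set beside their partners. Rpl22l1 had 30.0 CPM in the OGT-KO-labelled library and 11.5 CPM in the control library with no recovery, and 25.0 and 15.2 CPM after 7 days. Its ratio was 2.61 (2.26 to 3.04) with no recovery, the largest of the members compared, and 1.64 (1.43 to 1.89) after 7 days. Its partner Rpl22, an RNA-binding protein of the large subunit, had 107 against 88.4 CPM and then 102 against 77.6 CPM, ratios of 1.21 (1.14 to 1.28) and 1.31 (1.23 to 1.40). The paralogue thus had the higher ratio of the pair at both time points. On the median-ratio scaling the log2 fold changes were 0.63 and then 0.03 for Rpl22l1, and -0.44 and then -0.29 for Rpl22.

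Rps27l, a paralogue of Rps27 known as a p53 target, had 114 against 71.8 CPM with no recovery and 93.9 against 72.8 CPM after 7 days. Rps27 had 138 against 98.6 CPM and then 130 against 92.3 CPM. The ratio was 1.58 (1.48 to 1.69) and then 1.29 (1.21 to 1.38) for Rps27l, and 1.40 at both times for Rps27, so that the paralogue stood above its partner with no recovery and below it after 7 days. Rpl7l1 had 83.6 against 62.4 CPM and then 84.4 against 61.8 CPM, log2 fold changes of 0.42 and 0.44, where its partner Rpl7 had 0.19 and 0.22. Rpl36al was near the limit of use at 1.40 to 2.84 CPM, and Rpl36a had 93.5 against 69.7 CPM and then 94.3 against 67.0 CPM. The other partners on the list were Rpl3 (log2 fold changes 0.83 and 0.80), Rpl39 (0.39 and 0.57), Rps4x (0.57 and 0.61) and Rpl10 (-0.06 and -0.04). Their listed paralogues were not among the genes of the deposited table.

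Rps19bp1 is a member by name but no ribosomal protein: its product binds RPS19 and is known as an activator of SIRT1. It had 26.7 against 10.9 CPM with no recovery and 18.3 against 11.8 CPM after 7 days, a log2 fold change of 1.22 and then 0.60. Without it, the paralogues and the pseudogene names, 75 of 76 subunit genes were compared. Then 2 rose at least 2-fold with no recovery, Rps19 among them, and the medians stayed at 0.56 and 0.54. Of 3 listed ribosomal proteins that the names do not show, 2 were compared, and the other had a mean under 10 CPM. Both compared genes stood above the members' median. Rack1, a scaffold on the small subunit, had 392 against 247 CPM and then 379 against 220 CPM (log2 fold changes 0.67 and 0.78). Fau, which encodes RPS30, had 279 against 149 CPM and then 216 against 126 CPM (0.91 and 0.77).

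Between no recovery and 7 days the members differed little. In the control libraries their sum was 0.925 (0.920 to 0.930) times as high after 7 days, and in the OGT-KO-labelled libraries 0.921 (0.917 to 0.925) times. No member rose or fell 2-fold in either. In the control libraries 0.245% of all compared genes rose and 0.96% fell by as much, and in the OGT-KO-labelled ones 1.04% rose and 0.435% fell. At 1.5-fold no member was higher or lower over time either, beside 1.22% higher and 4.06% lower of all compared genes in the control libraries, and 4.17% and 2.33% in the OGT-KO-labelled ones. The median log2 fold change over time was -0.09 in the control libraries and -0.13 in the OGT-KO-labelled ones, beside -0.05 and -0.03 for all compared genes.

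The small shift had 1 direction in most members. By any amount, 76 of 79 members were lower after 7 days in the control libraries, beside 60.5% of all compared genes, and 70 of 79 in the OGT-KO-labelled ones, beside 54.5%. In both, 67 of 79 members (84.8%) were lower after 7 days, beside 35.1% of all compared genes, and none was higher in both, beside 20.0%. On the median-ratio scaling 17 of 79 members were higher after 7 days in the control libraries, beside 47.7% of all compared genes, and 27 of 79 in the OGT-KO-labelled ones, beside 57.8%. The shift was smaller than the gap between the labels for nearly all members: only for 3 of 79, Rpl10, Rpl35a and Rps2, did both 7 day libraries lie below both libraries with no recovery, beside 4.42% of all compared genes. The log2 fold changes over time, from pairs of libraries that share none, had a Pearson correlation of 0.08 over the 79 members and 0.14 over all compared genes.

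Few members stood apart in time. Rpl13a, known for its part in the GAIT complex that silences inflammatory mRNAs, had 12.5 CPM with no recovery and 9.21 CPM after 7 days in the control libraries, and 23.8 and 16.2 CPM in the OGT-KO-labelled ones. Its log2 fold changes, -0.40 and -0.53, were the lowest of the members in both. Next lowest were Rpl41 (-0.33) and Rps13 (-0.28) in the control libraries, and Rps19bp1 (-0.52) and Rpl9 (-0.40) in the OGT-KO-labelled ones. The highest were Rpl22l1 (0.38) in the control libraries and Rps15a (0.20) in the OGT-KO-labelled ones, where Rps15a had 82.2 CPM with no recovery and 94.3 CPM after 7 days. Rpl22l1 went the other way in the OGT-KO-labelled libraries, with -0.25.

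**Figure D4:**
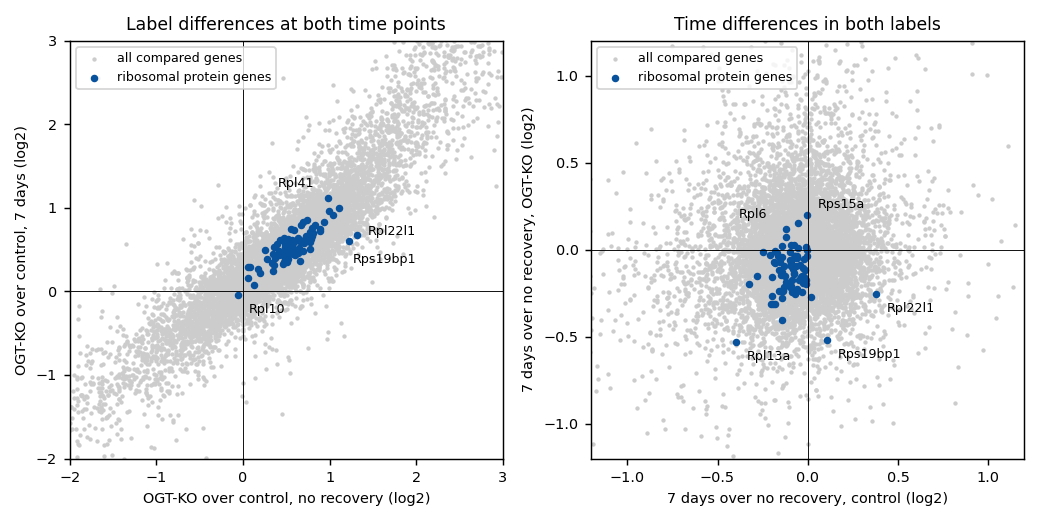
Log2 fold changes of the 79 compared members (blue) and of all 8963 compared genes (grey; genes beyond the axis limits are not drawn). Left, OGT-KO over control with no recovery (x) and after 7 days (y), where the members form a tight group along the diagonal with a Pearson correlation of 0.80; right, 7 days over no recovery in the control libraries (x) and in the OGT-KO-labelled ones (y), where most members lie below 0 on both axes.

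Genes that make or regulate ribosomes were then described from lists made by function. Their values are in CPM; on the median-ratio scaling the median log2 fold change, OGT-KO against control, was 0.17 with no recovery and -0.10 after 7 days for the biogenesis factors, 0.23 and -0.15 for the RNA polymerase I machinery, -0.28 and -0.33 for the regulators and -0.31 and -0.22 for the translation factors, beside -0.19 and -0.18 for all compared genes. Of the 58 listed ribosome biogenesis factors, which process rRNA and assemble the subunits, 55 were compared. With no recovery 24 of 55 (43.6%) rose at least 2-fold, beside 24.4% of all compared genes, none fell, beside 5.69%, and the median log2 fold change was 0.88. After 7 days 7 (12.7%) rose, beside 22.9% of all compared genes, and none fell, beside 4.27%, with a median of 0.54. The largest value was that of Eif6, which keeps the large subunit from joining too early, with 193 against 43.7 CPM and then 157 against 43.1 CPM. Gar1, of the complex that makes pseudouridine in rRNA, had 25.3 against 6.21 CPM and then 19.5 against 6.16 CPM. At the low end, Rcl1 had 65.3 against 94.8 CPM and then 69.2 against 127 CPM.

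The biogenesis factors stood apart from the members over time in the control libraries. Their median log2 fold change from no recovery to 7 days was 0.09 there, beside -0.09 for the members and -0.05 for all compared genes. In the OGT-KO-labelled libraries it was -0.24, beside -0.13 and -0.03, and the quartiles (-0.36 to -0.10) overlapped those of the members (-0.22 to -0.04). None passed 2-fold, beside 0.245% risen and 0.96% fallen of all compared genes in the control libraries, and 1.04% and 0.435% in the OGT-KO-labelled ones. Of the RNA polymerase I machinery, which transcribes rRNA, 11 of 14 listed genes were in the table and 8 were compared. With no recovery 3 (37.5%) rose at least 2-fold, beside 24.4% of all compared genes, and after 7 days 1 (12.5%) did, beside 22.9%. None fell, and the medians were 0.90 and 0.51. Polr1a, the largest subunit, had 76.7 against 24.2 CPM and then 69.3 against 25.3 CPM.

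The list of regulators of ribosomal protein synthesis held 20 genes, 1 of them the member Rps6, and 19 were compared. At each time point 3 (15.8%) rose at least 2-fold, a smaller share than the 24.4% with no recovery and 22.9% after 7 days of all compared genes. With no recovery 1 (5.3%) fell, beside 5.69% of all compared genes, and after 7 days none did, beside 4.27%. The medians were 0.43 and 0.34. Myc, the transcription factor that drives ribosome biogenesis, had 69.7 against 11.1 CPM and then 43.5 against 11.5 CPM, log2 fold changes of 2.55 and 1.83. Akt1s1 (192 against 67.2 CPM, then 116 against 56.0 CPM), an inhibitor within mTORC1, also rose at both time points. Eif4ebp1, a target of mTORC1 that blocks cap binding, rose with no recovery (120 against 42.7 CPM) and had 88.3 against 46.3 CPM after 7 days.

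Deptor, another inhibitor of mTOR, fell with no recovery (97.3 against 229 CPM) and had 98.9 against 192 CPM after 7 days. Mlst8, a subunit of both mTOR complexes, had 21.0 against 11.3 CPM with no recovery and rose after 7 days, with 22.8 against 10.4 CPM. Mtor itself had 86.2 against 48.7 CPM and then 78.7 against 57.2 CPM, and Larp1, the binder of TOP mRNAs, had 207 against 244 CPM and then 203 against 233 CPM. The mRNA levels of these regulators say nothing of their activity.

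Translation factors and other genes whose mRNAs are known to carry a TOP tract were more spread than the members. All 17 listed were compared. With no recovery 3 (17.6%) rose at least 2-fold, beside 24.4% of all compared genes, and after 7 days 1 (5.9%) did, beside 22.9%. None fell, beside 5.69% and 4.27%, and the medians were 0.40 and 0.46. Hnrnpa1, an RNA-binding protein of splicing, had 133 against 51.8 CPM and then 172 against 61.9 CPM, and Eef1b2, of the elongation factor that reloads EEF1A, had 308 against 131 CPM and then 220 against 121 CPM. Eef1a1, the elongation factor that brings tRNA to the ribosome, was level at 3290 against 3243 CPM and then 3090 against 3137 CPM. With no recovery 41.2% of the 17 lay within 0.25 of their own median log2 fold change, and 52.9% did after 7 days.

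Tract length at the annotated start was set beside the fold changes for the members with a sequence. For a gene with several annotated starts, the start with the longest run was used. The 23 compared members with a run of at least 8 C and T bases had a median log2 fold change of 0.58 with no recovery and 0.59 after 7 days, with values from 0.13 to 1.31 with no recovery. The 36 with a shorter run had 0.50 at both time points, with values from -0.06 to 1.22. The ranges of the 2 groups overlapped almost entirely. In the windows shown above, Rpl12 and Rpl41, both near 2-fold, had runs of 7 and 3 bases, and Rpl10, which was level, had a run of 3.

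Other large complexes, chosen by gene name, differed from the members in their medians. The shares of all compared genes to set beside their counts are 24.4% risen and 5.69% fallen with no recovery, and 22.9% and 4.27% after 7 days. The 73 compared of 77 mitochondrial ribosomal protein genes had median log2 fold changes of 0.41 with no recovery and 0.37 after 7 days, with 3 (4.1%) and then 1 (1.4%) risen at least 2-fold and 1 (1.4%) and then none fallen. The 37 compared of 39 proteasome subunit genes had medians of 0.24 and 0.19, with 4 (10.8%) and then 2 (5.4%) risen and none fallen. The 72 compared of 74 oxidative phosphorylation genes had medians of -0.22 and -0.09, with 6 (8.3%) and then 1 (1.4%) fallen and none risen. In the same libraries 50.7% of the mitochondrial ribosomal, 67.6% of the proteasome and 54.2% of the oxidative phosphorylation genes lay within 0.25 of their own median with no recovery, beside the 75.9% of the cytosolic ribosomal proteins. After 7 days these shares were 57.5%, 75.7% and 62.5%, beside 81.0%, so that the proteasome genes lay nearly as close together as the members. On the median-ratio scaling the 3 complexes had medians of -0.29 and -0.31, -0.47 and -0.48, and -0.92 and -0.76, each lower than the -0.15 of the members at both time points.

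**Figure D5:**
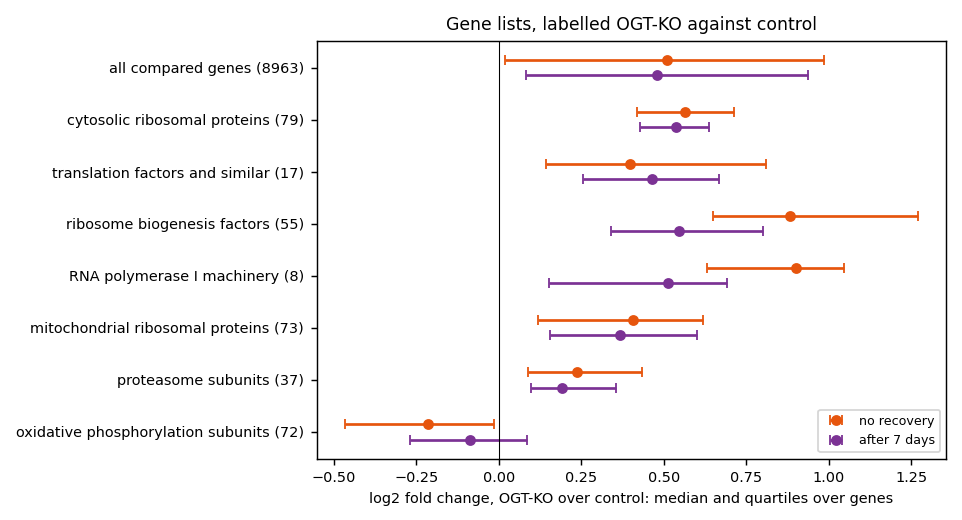
Median log2 fold change, OGT-KO over control, of each gene list with no recovery (orange) and after 7 days (purple), on the deposited CPM; bars span the lower to the upper quartile over genes and the number of genes compared stands in parentheses. The cytosolic ribosomal proteins sit at 0.56 and 0.54 with short bars, close to the median of all compared genes at 0.51 and 0.48, and biogenesis factors and RNA polymerase I genes reach 0.88 and 0.90 with no recovery.

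Counting error alone was small beside most of these differences. Over the 79 compared members, the counting interval of the ratio of the labels lay above 1 for 78 and below 1 for 1, Rpl10, with no recovery, beside 69.7% above and 19.8% below over all compared genes. After 7 days it lay above 1 for 77 and below 1 for none, beside 71.7% and 16.8%. Over time it lay below 1 for 51 members and above 1 for 1 (Rpl22l1) in the control libraries, beside 31.1% and 15.3% of all compared genes. In the OGT-KO-labelled ones it lay below 1 for 55 and above 1 for 3 (Rpl23a, Rpl6 and Rps15a), beside 33.2% and 27.0%. These intervals compare 2 libraries in CPM and leave out the spread between pools of mice, which 1 library for each condition cannot show.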

How the data were processed

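The authors deposited CPM for 13903 genes in 4 liver libraries. The submitters' processing notes name STAR, DESeq2 and GRCm39; counting of multi-copy reads and strand is not given in the sources used here. Although the table is named for DESeq2 normalization, its columns each sum to 1000000, and 100.0% of values were whole multiples of 1 read (tolerance 0.01), so reads were recovered. Fold changes are differences of log2(CPM + 1) over genes whose mean reached 10 CPM, called at 2-fold. With 1 library per condition no test between conditions was made. Transcript lengths came from GENCODE M21 and start sites from RefSeq, both on GRCm38. Alternatives were pseudocounts of 0.1 and 10, no filter, a mean of at least 50, median-ratio and upper-quartile scaling, a 1.5-fold threshold and, added after seeing the data, an exact binomial test on reads and a list of subunit genes only. Named members are those highest per length, highest and lowest in each comparison, most different between time points, under the filter, in the stalk or bound to 5S rRNA, and paralogues with their partners. Other members named for their windows or for standing off the members' median were picked after their values were seen. A member of the list is counted but is not reported singly here. Members and lists were chosen with earlier results of these data known. Steps were tested on simulated reads. Python 3.11, numpy 2.4.6, pandas 2.3.3, scipy 1.17.1 and matplotlib 3.10.9 were used.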

Additional observations from a re-analysis of the deposited data

Results flagged for a closer look

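The 85 members were screened for counting intervals of their 2 ratios on opposite sides of 1. The ratios were those of the labels at the 2 time points and those of the time points in the 2 labels. The intervals below are thus the rule of choice and no further evidence, and no share of all compared genes is given. Rpl22l1 differed over time in opposite directions in the 2 labels. Its log2 fold change from no recovery to 7 days was 0.38 in the control libraries (ratio 1.33, 95% counting interval 1.12 to 1.58) and -0.25 in the OGT-KO-labelled ones (ratio 0.833, 0.744 to 0.933), a difference of -0.63. Rpl6, a protein of the large subunit, did the reverse, with -0.12 (ratio 0.918, 0.879 to 0.960) and 0.12 (ratio 1.09, 1.05 to 1.13), a difference of 0.24. The members' median over time was -0.09 in the control libraries, near the value of Rpl6, and -0.13 in the OGT-KO-labelled ones. With 1 library for each condition the difference between labels was not tested for either gene.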

How the results depend on the processing

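Of 112 recomputed values over all comparisons, 93 stayed close to the value reported, but 58 of these are counts of 0 that stayed 0 and show little. Scaling had the widest effect. With median-ratio scaling the members' median log2 fold change, OGT-KO against control, turned to -0.153 with no recovery and -0.145 after 7 days, and over time in the OGT-KO-labelled libraries it was -0.060, and in the control libraries -0.054 in place of -0.094. With upper-quartile scaling the first 2 were 0.085 and 0.054, and the control value over time was -0.042. Under both scalings 0 members rose at least 2-fold at either time. Both OGT-KO-labelled libraries then lay above both control libraries for 10 (median-ratio) or 35 (upper-quartile) members and below them for 50 or 16. At least 1.5-fold apart, 14 lay above in CPM. Beside the median-ratio counts, 29.5% of all compared genes lay above and 51.5% below. For the upper-quartile counts, those 1.5-fold apart and the 2-fold counts under both scalings, no such share is given. They describe the members only. The 4 members risen at least 2-fold with no recovery became 1 with a pseudocount of 10, 2 with a mean of at least 50, 2 for subunit genes only and 34 at 1.5-fold; the 1 after 7 days became 34 at 1.5-fold. Median-ratio scaling, like CPM, moves every gene of a library by 1 factor. Its factors came from all listed genes above 0 in every library, also those under the filter of 10 CPM. The medians cover only the compared genes, whose own median on that scaling was -0.19 with no recovery and -0.18 after 7 days. The exact binomial test with Benjamini-Hochberg adjustment called 79 and 77 of 79 members with no recovery and after 7 days, beside 8016 and 7904 of 8963 genes; it compares libraries, not conditions. No paired analysis was possible because each comparison of conditions has 1 library on either side. A fit of the label over all 4 libraries with the time point as a block, which leaves 1 residual degree of freedom, was not run. Depth limits only the 6 members under 10 CPM.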
